A study of Mus musculus with 12 samples.

Results

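The cell cycle and proliferation genes are 50 genes chosen by symbol, of 52636 genes in the count table: 20 that act in DNA replication and 30 that act in mitosis. All 50 were found once each and all 50 passed the filter on low counts. They were measured by bulk RNA sequencing in Cx3cr1+ macrophages of mouse lung, a population named after the fractalkine receptor. The 3 groups of 4 libraries are saline with the genotype IL4Ra WT (saline WT), bleomycin with IL4Ra WT (bleomycin WT) and bleomycin with IL4Ra KO (bleomycin KO). Bleomycin is a DNA-damaging drug used to induce lung fibrosis in mice, and IL4Ra is the receptor subunit through which both IL-4 and IL-13 signal. A saline group with the KO genotype was not analysed here, so the genotype is compared only under bleomycin. The labels give no age, time after bleomycin, cell or promoter in which Il4ra was deleted, or number of animals behind a library. The spread behind each p-value is therefore that between libraries of 1 group, and may be technical.

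A dividing cell first licenses its replication origins by loading the MCM helicase, fires them in S phase under cyclin E, cyclin A and the E2F factors, and needs a supply of deoxynucleotides to copy its DNA. It then enters mitosis under CDK1 with cyclin B, attaches its chromosomes to the spindle through kinetochores, and leaves mitosis when the anaphase-promoting complex marks cyclins for destruction. Most of these genes are transcribed in pulses, the replication genes at the G1/S transition and the mitotic genes in G2 and M. In the lung, macrophages are replaced both by division of resident cells and by entry of monocytes from the blood. In bulk RNA, fewer cells in cycle and less RNA per cycling cell cannot be told apart.

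The pulses are known to run through short promoter elements: E2F sites for the replication genes, and the cell cycle homology region (CHR) with CCAAT boxes for the mitotic genes. These were counted in the 300 bases around each start site (250 before to 50 after; RefSeq, GRCm38.p6), where 42 of the 50 members had an entry and 16317 protein-coding genes served as the comparison. E2F was searched as TTTCCCGC, TTTCGCGC, TTTGCCGC or TTTGGCGC, CHR as TTTGAA and the CCAAT box as CCAAT, on both strands, with overlapping matches of 1 motif counted once. An E2F match was present in 7 of 17 replication promoters (41.2%; Mcm3, Mcm5, Mcm6, Mcm7, Cdc6, Cdt1 and Hells), in 1 of 25 mitotic promoters (4.00%; Cdk1) and in 2.90% of all promoters. A CHR match was present in 3 of 17 replication promoters (17.6%), 19 of 25 mitotic promoters (76.0%) and 15.6% of all. CCAAT matches were present in 58.8%, 76.0% and 38.7%, and CHR together with CCAAT in 17.6%, 64.0% and 6.39%. A match describes the letters in the window and is not a measured binding site.

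Of the windows, 4 are shown because they hold these letters in the genes described below, each read 5′ to 3′ along the gene's strand up to its start, with matches in capitals. Mcm6 (chr1:128359706-128359855, minus strand) shows the replication pattern, with E2F matches at -110 and -47 from the start site. It also holds CCAAT matches at -57 and -14, on the opposite strand. Ccnb2 (chr9:70421555-70421704, minus strand) shows CCAAT boxes at -87, -54 and -21. Its CHR matches, at -167 and 5, lie outside the printed stretch. Cdc20 (chr4:118437353-118437502, minus strand) and Top2a (chr11:99024190-99024339, minus strand) each show a CHR match near the start, at -18 and -23. The Top2a match is on the opposite strand and so printed as its reverse complement, as are the CCAAT matches printed as ATTGG. The printed Cdc20 stretch ends at -10 from the RefSeq start site, just before the first base of the deposited gene. Its CCAAT match at -8 lies outside the stretch.
Mcm6: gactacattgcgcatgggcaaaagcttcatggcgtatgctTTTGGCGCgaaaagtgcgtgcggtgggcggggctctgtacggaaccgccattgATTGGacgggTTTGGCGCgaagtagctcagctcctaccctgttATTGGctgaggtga
Ccnb2: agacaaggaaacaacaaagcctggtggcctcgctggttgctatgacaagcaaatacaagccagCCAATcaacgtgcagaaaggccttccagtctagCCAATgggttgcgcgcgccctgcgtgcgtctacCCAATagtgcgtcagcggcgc
Cdc20: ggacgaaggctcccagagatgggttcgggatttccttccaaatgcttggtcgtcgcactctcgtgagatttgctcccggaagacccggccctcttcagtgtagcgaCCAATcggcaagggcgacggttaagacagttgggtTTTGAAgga
Top2a: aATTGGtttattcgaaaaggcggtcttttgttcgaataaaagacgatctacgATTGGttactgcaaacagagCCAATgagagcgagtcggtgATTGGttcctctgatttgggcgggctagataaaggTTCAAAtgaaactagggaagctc

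Total counts per library ran from 60598 to 18051113. The 60598 belonged to saline WT 2, where 3 counts are worth 32.4 CPM (counts scaled by TMM to a library size shared by all samples, the unit of every level below); in the other libraries they are worth 0.185 to 0.730 CPM. Saline WT 2 held 45 counts over all members, with 42 of the 50 at 0, so a 0 there allows a level of up to 32.4 CPM. Such a floor allows for counting error alone, and amplified copies of 1 molecule are not independent counts. Members at 0 counts numbered 4 in saline WT 1, 8 in bleomycin WT 4 and 0 in the other 9 libraries. Genes of the members' abundance in the KO libraries were missing as well. These were 9131 genes, the members among them, with a mean of 5.84 to 143 CPM in KO. Of them, 64.9% were at 0 in saline WT 2, 9.07% in saline WT 1, 5.67% in bleomycin WT 4 and at most 0.559% elsewhere. They were chosen by their KO level, so low shares in the KO libraries were partly built in. Saline WT 1, saline WT 2 and bleomycin WT 4 stand apart in the members too. Counts over the members are therefore given with all 12 libraries and with some of the 3 left out. So are members whose values turn on these libraries. The members' own values were part of this choice, so the fits without these libraries are not independent of them. The macrophage markers Csf1r, Adgre1 and Lyz2 were abundant: their means were 1528, 458 and 19982 CPM for saline WT, 1328, 701 and 31009 CPM for bleomycin WT, and 1494, 655 and 42109 CPM in the KO libraries. Cx3cr1 itself averaged 343, 57.0 and 97.3 CPM in the same order. Il4ra was at 473, 277, 235 and 343 CPM in the libraries labelled KO and at 351, 626, 302 and 138 CPM in bleomycin WT, a log2 fold change of -0.09 (SE 0.58). Reads outside a deleted exon check nothing, and which part was deleted is not given in the labels.

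Members were higher in most bleomycin libraries than in most saline libraries. The members summed to 1046 ± 497 CPM in saline WT, 1999 ± 601 in bleomycin WT and 2150 ± 204 in bleomycin KO (SD, n = 4 each). The 4 KO libraries and bleomycin WT 1, 2 and 3 carried a nearly uniform profile, whereas saline WT 1, saline WT 2 and bleomycin WT 4 were scattered gene by gene. The SD over the 50 members of the log2 ratio to the KO mean was 0.227 to 0.404 within KO, 0.283, 0.448 and 0.419 in bleomycin WT 1 to 3, and 2.05 in bleomycin WT 4. In saline WT it was 1.78, 2.17, 0.766 and 1.02. Each KO library is part of the KO mean, which lowers the KO values. The saline values also hold differences between the groups.

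**Figure D1:**
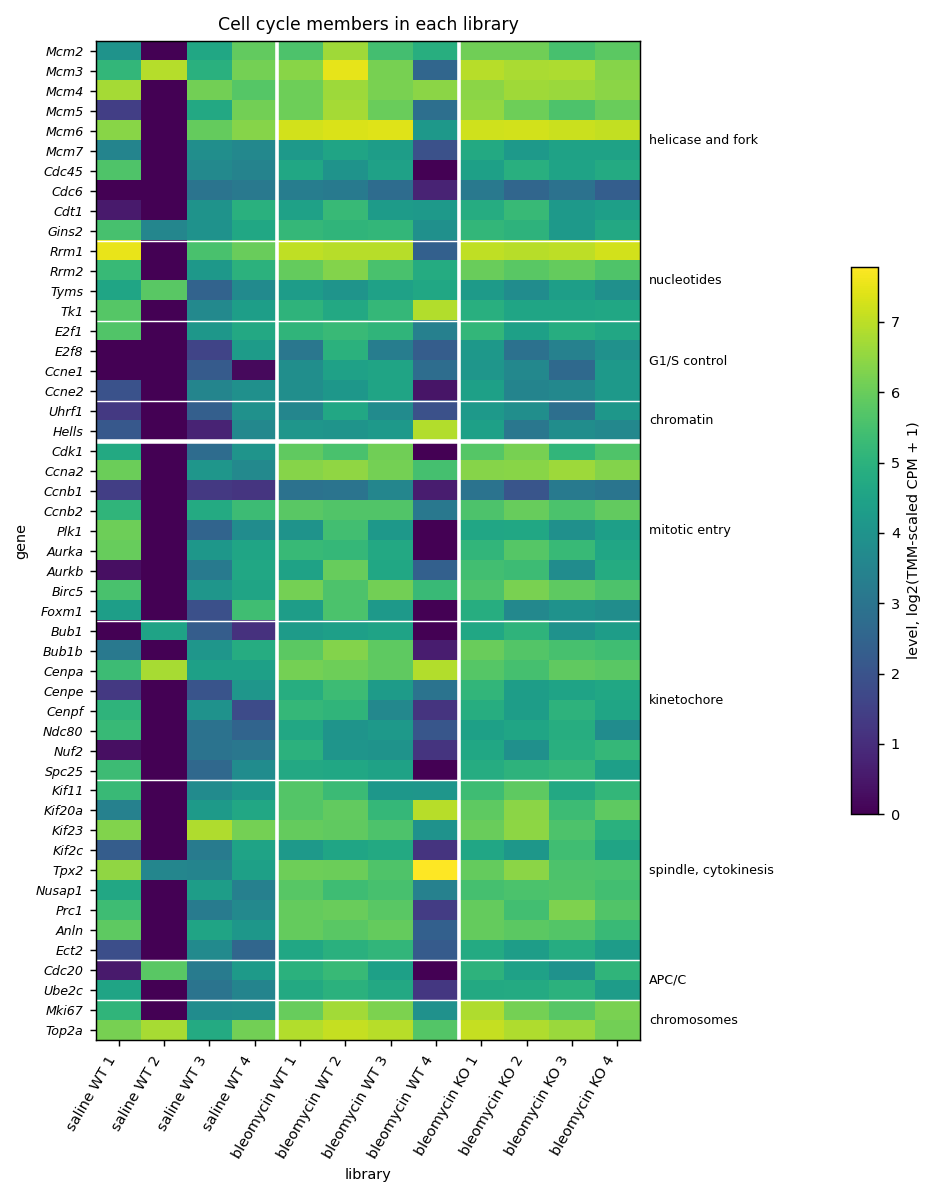
Log2(CPM + 1) of the 50 members (rows, grouped by role) in the 12 libraries (columns, grouped by treatment and genotype), on 1 colour scale. Saline WT 2 is almost empty, with 42 members at 0, saline WT 1 and bleomycin WT 4 are uneven, and the other bleomycin libraries look alike.

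The first comparison asks which members differed with bleomycin in wild-type libraries. In bleomycin WT against saline WT, 46 of 50 members had a log2 fold change above 0, where 52.9% of all 16679 genes tested did. The median was 0.88 over the members, 0.75 over the 20 replication genes, 1.08 over the 30 mitotic genes and 0.08 over all genes. No member passed an edgeR adjusted p of 0.05 (0.024% of all genes passed it as higher); the smallest adjusted p was 0.221, for Kif20a. With an unadjusted p under 0.05, 8 members were higher and 0 lower, where 8.47% of all genes were higher and 6.19% lower by that rule. Every bleomycin WT library lay above every saline WT library for 3 members (Ccne1, Hells and Kif20a), and for 4.93% of all genes. For Ccne1 and Hells the 0 in saline WT 2 allows up to 32.4 CPM, above some or all bleomycin WT levels.

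The counts depended on the libraries, and the members' own values were part of the reason for leaving some out. Without saline WT 2 and bleomycin WT 4, 21 members were higher at an unadjusted p under 0.05 (4 replication and 17 mitotic genes; 6.49% of all genes), and 24 did not overlap (11.2% of all genes). The median over all 50 members was 1.03, against -0.14 over all genes, and 0 passed the adjusted threshold (0.287% of all genes did as higher), the smallest adjusted p being 0.0542 for Mcm6. Leaving out saline WT 1 as well, also a choice made after seeing the data, leaves 2 saline libraries. In that fit 15 members rose at an edgeR adjusted p under 0.05, where 1.46% of all genes did. Of these, 3 act in replication (Mcm6, Rrm1 and Rrm2) and 12 in mitosis (Cdk1, Ccna2, Birc5, Bub1, Bub1b, Cenpa, Tpx2, Nusap1, Prc1, Anln, Ube2c and Mki67). In the 2 saline libraries that remain, saline WT 3 and 4, the 10 neutrophil markers summed to 28944 and 17481 CPM, against 557 to 1547 in bleomycin WT; the part of this in the result was not tested.

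The MCM2-7 helicase and the factors that load and start it made up the largest replication role, with 10 members and median log2 fold changes of 0.55 for bleomycin WT and 0.90 for bleomycin KO, each against saline WT. Mcm6 (ENSMUSG00000026355, chromosome 1, 128331590 to 128359664), a helicase subunit, was at 84.2, 0, 60.3 and 82.0 CPM in saline WT 1 to 4. Its levels were 151, 160, 168 and 16.7 CPM in bleomycin WT and 147, 150, 142 and 133 CPM in KO. All bleomycin libraries other than bleomycin WT 4 lay above all saline libraries. The log2 fold change was 1.02 (SE 0.71, adjusted p 0.513 by edgeR) for bleomycin WT and 1.22 (SE 0.71, adjusted p 0.659) for KO. Without the 3 libraries that stand apart these were 1.28 (SE 0.20, adjusted p 0.0113) and 1.10 (SE 0.20, adjusted p 0.0179).

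Mcm3, another subunit of the same ring, was at 34.3, 119, 29.7 and 70.2 CPM in saline WT, at 83.8, 181, 71.2 and 4.98 CPM in bleomycin WT and at 123, 109, 113 and 81.0 CPM in KO. Its groups overlapped through saline WT 2 and bleomycin WT 4, and the log2 fold changes were 0.54 (SE 0.76) and 0.86 (SE 0.77). The value for bleomycin WT became -0.11 without bleomycin WT 2 and 1.12 without bleomycin WT 4, so it depended on the library left out. Without saline WT 2 and bleomycin WT 4 it was 1.30 (SE 0.42, adjusted p 0.210 by edgeR). In that fit the bleomycin WT libraries lay above the saline libraries. Mcm2, Mcm4, Mcm5 and Mcm7 had log2 fold changes of 0.40 to 1.16 for bleomycin WT. Cdc45, a partner of the MCM ring in the active helicase, was the 1 replication member below 0 there, at -0.43 (SE 1.03). That sign rests on the libraries that stand apart, since it was -0.29 (SE 0.58) without saline WT 2 and bleomycin WT 4 and 0.94 (SE 0.33, adjusted p 0.201 by edgeR) without saline WT 1 as well. The loading factors Cdc6 and Cdt1 and the GINS subunit Gins2 were at 0.37, 0.81 and 0.22.

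The 4 enzymes of nucleotide supply had median log2 fold changes of 0.72 for bleomycin WT and 0.43 for KO. Rrm1, the large subunit, was at 183, 0, 46.1 and 62.6 CPM in saline WT, at 130, 123, 123 and 4.27 CPM in bleomycin WT and at 129, 121, 126 and 152 CPM in KO. Saline WT 1 was the highest of all 12 libraries and bleomycin WT 4 nearly the lowest, and the log2 fold changes were 0.29 (SE 0.85) and 0.77 (SE 0.85). Rrm2, the small subunit whose level is known to peak in S phase, averaged 21.3 ± 16.6, 53.5 ± 22.8 and 56.9 ± 6.35 CPM in the 3 groups (SD, n = 4), with log2 fold changes of 1.15 (SE 0.63) and 1.24 (SE 0.63). Tk1, the thymidine salvage kinase, was at 51.6, 0, 11.7 and 19.6 CPM in saline WT, at 32.5, 24.7, 35.1 and 117 CPM in bleomycin WT and at 29.1, 23.0, 23.1 and 24.0 CPM in KO. The 117 CPM of bleomycin WT 4 set its mean: the log2 fold change against saline WT was 1.17 (SE 0.74) and 0.46 without that library. Tyms, thymidylate synthase, had a log2 fold change of 0.030 (SE 0.71) in bleomycin WT, and of 1.25 (SE 0.43, adjusted p 0.192 by edgeR) without the 3 libraries that stand apart.

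Among the G1/S regulators, cyclin E1 had the highest fitted value. Ccne1 (ENSMUSG00000002068, chromosome 7, 38097984 to 38107534) was at 0, 0, 3.69 and 0.145 CPM in saline WT, at 13.4, 21.0, 22.2 and 5.86 CPM in bleomycin WT and at 16.1, 11.5, 5.26 and 17.3 CPM in KO. No bleomycin library of either genotype overlapped saline WT 1, 3 or 4. The 0 of saline WT 2 allows up to 32.4 CPM, above every bleomycin level, so that library cannot show a gap. Its log2 fold changes were 3.57 (SE 1.14, adjusted p 0.227 by edgeR) and 3.25 (SE 1.12, adjusted p 0.384). Without saline WT 3, the library with most of its saline counts, they were 7.43 and 7.10. E2f1, an activator of the G1/S genes, was at 49.6, 0, 16.3 and 25.1 CPM in saline WT, at 32.9, 38.1, 33.2 and 9.42 CPM in bleomycin WT and at 34.7, 20.5, 27.8 and 24.6 CPM in KO. Its groups overlapped throughout, and its log2 fold changes of 0.16 (SE 0.69) and 0.08 (SE 0.69) turn negative with RLE size factors (-0.072 and -0.14). E2f8, a repressor of the same genes, and Ccne2 were at 1.02 (SE 1.11) and 0.69 (SE 0.92) for bleomycin WT.

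Of the replication-coupled chromatin factors, Uhrf1, which guides maintenance methylation of DNA, was at 1.46, 0, 4.10 and 14.3 CPM in saline WT, at 10.9, 24.2, 12.5 and 2.84 CPM in bleomycin WT and at 17.1, 13.3, 6.11 and 16.5 CPM in KO. Hells (ENSMUSG00000025001, chromosome 19, 38930915 to 38971051), a chromatin remodeller, was at 3.4, 0, 0.718 and 11.3 CPM in saline WT, at 16, 15.3, 17.0 and 117 CPM in bleomycin WT and at 20.5, 7.45, 13.1 and 11.5 CPM in KO. Bleomycin WT 4 was the highest library here and the lowest bleomycin library for Mcm6 and Rrm1. The log2 fold change of Hells in bleomycin WT was 3.11 (SE 0.99, adjusted p 0.227 by edgeR) and 1.86 without bleomycin WT 4.

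**Figure D2:**
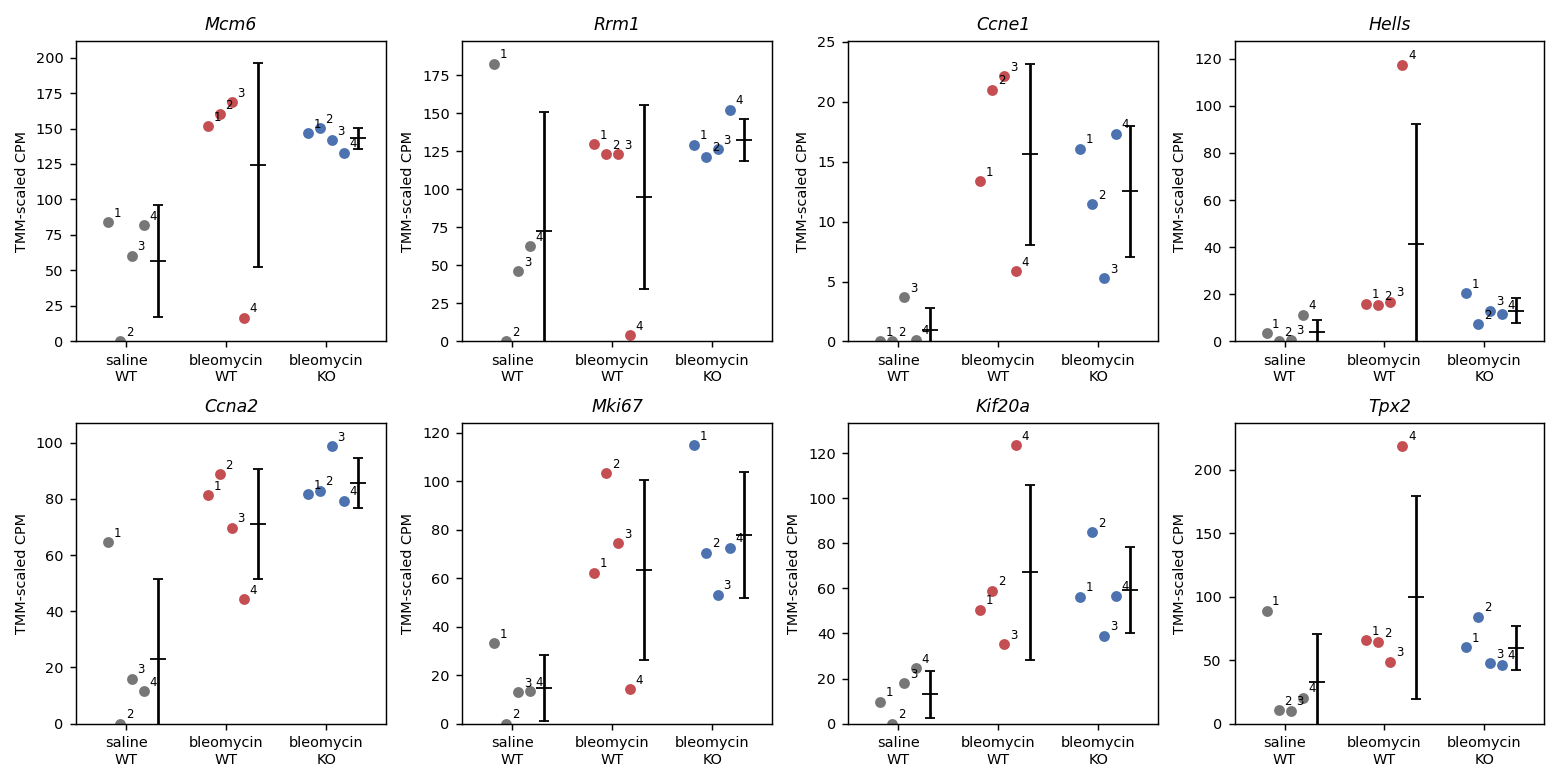
CPM of 8 members in each library (points labelled by replicate number) of the 3 groups, with the mean (tick) and SD (bar, n = 4; the part of a bar below 0 is not drawn), on linear axes. Bleomycin WT 4 sits below its group for Mcm6 (16.7 CPM against 151 to 168) and above it for Hells (117 CPM against 15.3 to 17.0).

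Mitotic entry is driven by Cdk1 with its cyclins, and this role had 9 members and medians of 1.23 and 1.24. Ccna2 (ENSMUSG00000027715, chromosome 3, 36564865 to 36572150), cyclin A2, was at 64.7, 0, 16 and 11.6 CPM in saline WT, at 81.3, 88.8, 69.7 and 44.2 CPM in bleomycin WT and at 81.8, 83.0, 98.7 and 79.3 CPM in KO. Only saline WT 1 reached into the bleomycin range, above bleomycin WT 4. The log2 fold changes were 1.45 (SE 0.67, adjusted p 0.337 by edgeR) and 1.72 (SE 0.67, adjusted p 0.469). Without the 3 libraries that stand apart they were 2.62 (SE 0.28, adjusted p 0.00175 by edgeR) and 2.70 (SE 0.28, adjusted p 0.00128). That fit, chosen after seeing the data, leaves out saline WT 1, the library that reached into the bleomycin range. Its 2 saline libraries are those with the high neutrophil markers. Ccnb2, cyclin B2, was at 33.1, 0, 25.8 and 39.5 CPM in saline WT, at 53.8, 49.8, 50.4 and 7.64 CPM in bleomycin WT and at 48.1, 62.2, 46.5 and 58.9 CPM in KO. All KO libraries lay above all saline libraries, as did bleomycin WT 1 to 3.

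Ccnb1, the other B cyclin, averaged 1.11 ± 0.759, 6.25 ± 4.24 and 6.26 ± 2.14 CPM in the 3 groups (SD, n = 4), with log2 fold changes of 2.14 (SE 0.96) for both genotypes. Cdk1 averaged 11.6 ± 11.2, 42.8 ± 29.9 and 51.6 ± 15.5 CPM and was at 0 in bleomycin WT 4. Plk1 and Aurka, kinases of centrosomes and spindle assembly, were at -0.32 (SE 1.12) and -0.21 (SE 1.03) for bleomycin WT, with saline WT 1 the highest of all libraries at 65.4 and 62.3 CPM. Without saline WT 2 and bleomycin WT 4 these values were -0.21 and -0.095, and without saline WT 1 as well 1.64 (SE 0.58, adjusted p 0.200 by edgeR) and 0.84 (SE 0.37, adjusted p 0.322). Aurkb and Birc5, which work together in the chromosomal passenger complex, were at 1.53 (SE 1.01) and 1.23 (SE 0.63). Foxm1, a transcription factor for mitotic genes, was at 0.20 (SE 1.12) and was 0 in bleomycin WT 4.

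The kinetochore genes had the highest median of any role with more than 2 members in bleomycin WT, 1.31 over 8 genes, all above 0. Cenpa, the histone variant that marks centromeres, was at 39.4, 108, 20.5 and 20.6 CPM in saline WT, at 70.8, 66.4, 58.3 and 116 CPM in bleomycin WT and at 52.5, 43.5, 57.8 and 54.9 CPM in KO. Its 108 CPM in saline WT 2 rests on very few counts, since 3 counts there are worth 32.4 CPM. Spc25, a subunit of the NDC80 complex that binds microtubules, was at 39.2, 0, 5.23 and 12.7 CPM in saline WT, at 24.7, 23.9, 21.4 and 0 CPM in bleomycin WT and at 27, 31.7, 35.3 and 20.2 CPM in KO. Its log2 fold change in bleomycin WT was 0.10 (SE 1.04), and its sign changed with the library left out (-0.11 without saline WT 3, 1.18 without saline WT 1) and with RLE size factors (-0.15). Of the others, the checkpoint genes Bub1 and Bub1b were at 2.47 (SE 1.46) and 1.69 (SE 0.94), the motor Cenpe at 1.88 (SE 0.84), Nuf2 at 1.78 (SE 0.98), Cenpf at 0.52 (SE 0.93) and Ndc80 at 0.11 (SE 0.83).

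For the spindle and cytokinesis genes the medians over 9 members were 1.26 and 1.34. Kif20a (ENSMUSG00000003779), a kinesin of the central spindle, was at 9.73, 0, 17.8 and 24.5 CPM in saline WT, at 50.6, 59.0, 35.1 and 124 CPM in bleomycin WT and at 56.3, 84.9, 39.0 and 56.7 CPM in KO. All 8 bleomycin libraries lay above all 4 saline libraries, and the log2 fold changes were 2.13 (SE 0.65, adjusted p 0.221 by edgeR) and 1.95 (SE 0.65, adjusted p 0.365). Its exact two-sided permutation p was 0.0286 in both comparisons, the smallest that 4 against 4 libraries allow. That value follows from the lack of overlap and adds nothing to it. It precedes any correction for the 19 members tested in each of 3 comparisons. Ccne1 had the same permutation p in both, with the limit from saline WT 2 given above.

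Kif23, a kinesin of the same central spindle, was higher in most saline libraries than in bleomycin WT, at 78.3, 0, 116 and 70.5 CPM in saline WT, at 59.9, 57.6, 47.6 and 14.6 CPM in bleomycin WT and at 63.0, 86.6, 48.0 and 29.9 CPM in KO. All bleomycin WT libraries lay below saline WT 1, 3 and 4, and its log2 fold change was -0.65 (SE 0.71). Tpx2, an activator of Aurora A, was at 89.0, 10.8, 10.4 and 20.6 CPM in saline WT, at 65.7, 64.3, 48.7 and 219 CPM in bleomycin WT and at 60.1, 84.3, 47.6 and 46.6 CPM in KO. Its log2 fold change in bleomycin WT was 1.5 (SE 0.72), 0.84 without bleomycin WT 4 and 2.76 without saline WT 1. The anillin gene Anln, the microtubule factors Nusap1 and Prc1, the RhoA activator Ect2 and the kinesins Kif11 and Kif2c were at 0.68 to 1.91.

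For the exit from mitosis, Cdc20, an activator of the anaphase-promoting complex, was at 0.486, 54.0, 8.41 and 17.8 CPM in saline WT, at 30.5, 36.6, 20.6 and 0 CPM in bleomycin WT and at 31.6, 20.7, 14.6 and 32.9 CPM in KO. Ube2c, the complex's ubiquitin-conjugating enzyme, was at 22.1, 0, 6.97 and 10.3 CPM, 25.3, 30.2, 25.1 and 1.42 CPM, and 25.4, 25.8, 31.2 and 18.9 CPM in the same order of groups. In both genes bleomycin WT 4 was the lowest bleomycin library. Mki67 (ENSMUSG00000031004, chromosome 7, 135689784 to 135716361), whose protein Ki-67 coats mitotic chromosomes and is the usual stain for cycling cells, was at 33.1, 0, 12.9 and 13.3 CPM in saline WT. It was at 62.2, 103, 74.3 and 14.2 CPM in bleomycin WT and at 115, 70.5, 53.2 and 72.6 CPM in KO. All KO libraries lay above all saline libraries, and bleomycin WT 4 lay within the saline range. Its log2 fold changes were 1.88 (SE 0.70, adjusted p 0.267 by edgeR) and 2.17 (SE 0.71, adjusted p 0.359). Without the 3 libraries that stand apart, a choice made after seeing the data that leaves 2 saline libraries, they were 2.71 (SE 0.40, adjusted p 0.00740) and 2.65 (SE 0.39, adjusted p 0.00678). Top2a, the topoisomerase that untangles sister chromatids, was at 71.7, 108, 25.8 and 68.8 CPM in saline WT, at 116, 135, 122 and 51.4 CPM in bleomycin WT and at 137, 113, 95.9 and 68.1 CPM in KO.

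**Figure D3:**
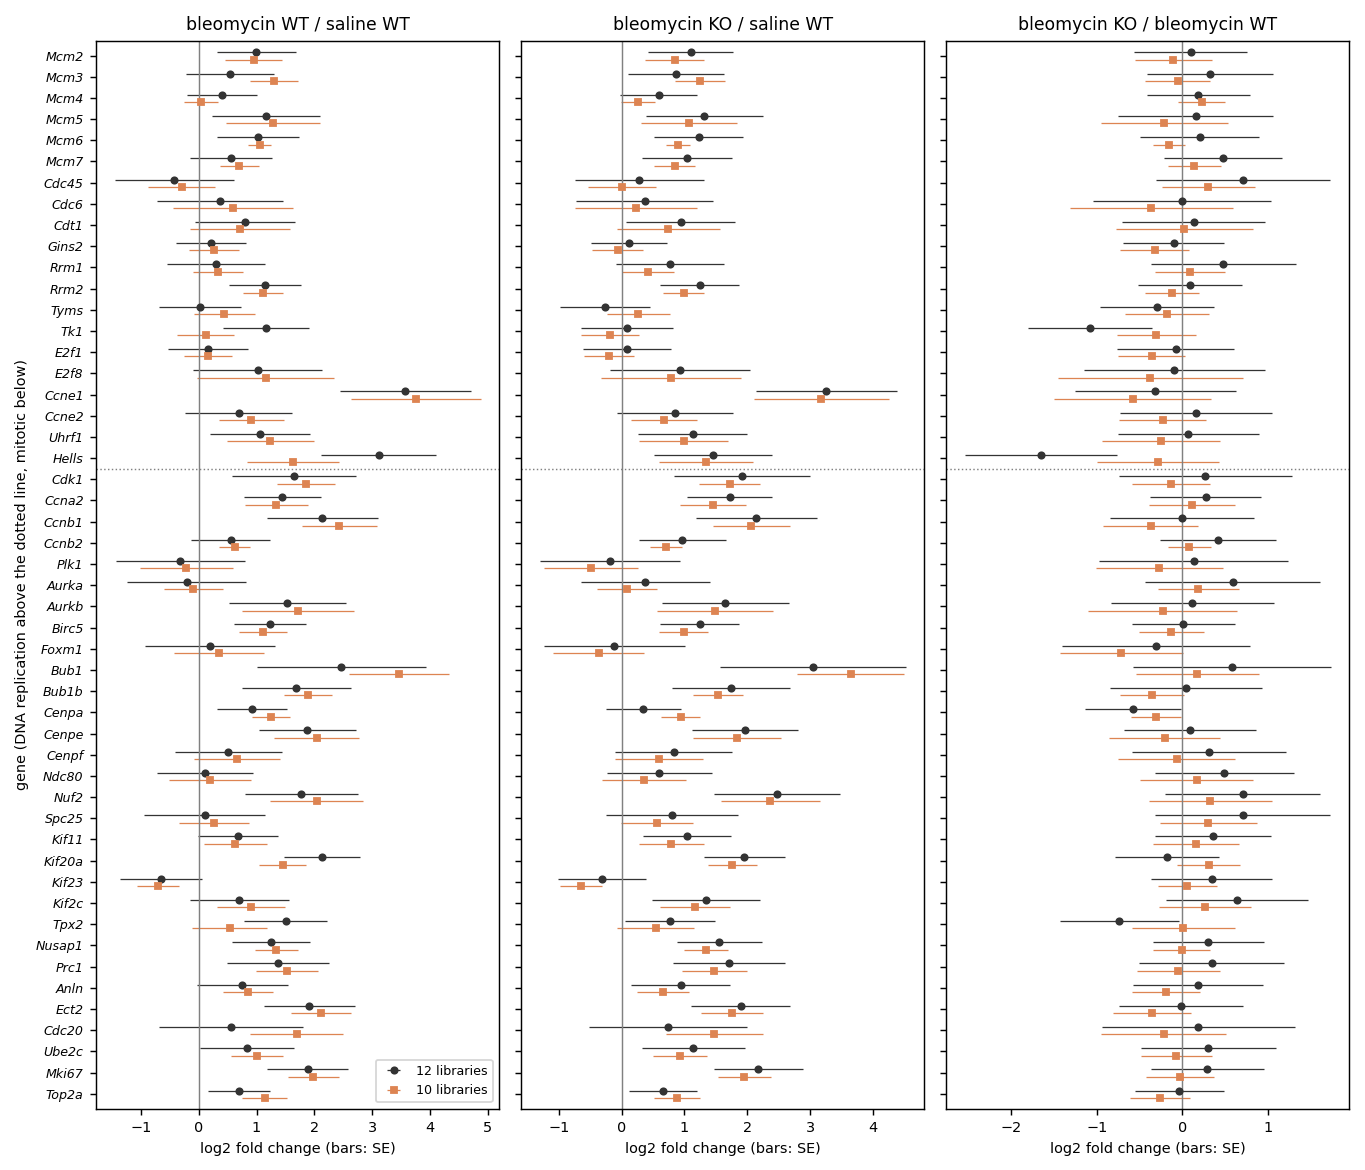
Log2 fold change and SE (bar) of each of the 50 members in the 3 comparisons, ordered by role, from the edgeR fits of 12 libraries (circles) and of 10, without saline WT 2 and bleomycin WT 4 (squares). In both comparisons with saline WT 46 of 50 circles lie to the right of 0, and between the bleomycin groups the points lie around 0.

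Levels per length were compared within the KO group, the one with the most even profiles. On the scale of mean CPM per kb of exon, the highest members were Ccnb2 and Mcm3 (35.2 each), Rrm1 (33.1), Mcm6 (32.7) and Cenpa (31.8). The lowest were Cdc6 (1.22), Hells (2.24), Cenpf (2.28) and Ccnb1 (2.52). Replication and mitotic genes thus stood at both ends of the order, and the B cyclins were at opposite ends of it.

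The second comparison asks whether the Il4ra genotype went with cell cycle expression under bleomycin. In bleomycin KO against bleomycin WT, 35 of 50 members had a log2 fold change above 0, against 49.3% of all genes, and the median was 0.16. The medians were 0.09 over the replication genes and 0.27 over the mitotic genes. No member had an adjusted p under 0.05 (0% of all genes did, in either direction), and none had an unadjusted p under 0.05 in edgeR (0.186% of all genes were higher and 3.69% lower by that rule). The direction of the medians rested on bleomycin WT 4: without it 15 of 50 members were above 0 and the medians were -0.22 and -0.08. The smallest p among the members belonged to Hells, Tk1 and Tpx2, at -1.65 (SE 0.89), -1.08 (SE 0.72) and -0.74 (SE 0.70), and these were -0.30, -0.32 and -0.01 without bleomycin WT 4. Cenpa was the 1 member for which every KO library (43.5 to 57.8 CPM) lay below every bleomycin WT library (58.3 to 116 CPM), where 0.594% of all genes did, with a log2 fold change of -0.58 (SE 0.56). In bleomycin WT 4 the T and NK cell markers (10 genes) and B cell markers (7 genes) were the highest of the 12 libraries, at 1046 and 902 CPM summed, and the macrophage markers the lowest of the bleomycin libraries, at 29569 CPM; their part in its member values was not tested.

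The third comparison, bleomycin KO against saline WT, differs in both treatment and genotype and shares its saline libraries with the first, so the 2 comparisons are not independent. Here 46 of 50 members had a log2 fold change above 0, against 51.7% of all genes. The medians were 1.0 over the members, 0.89 over the replication genes, 1.19 over the mitotic genes and 0.04 over all genes. No member passed the adjusted threshold (0.018% of all genes did as higher; smallest adjusted p 0.359), while 9 were higher and 0 lower at an unadjusted p under 0.05 in edgeR, where 2.96% and 6.07% of all genes were. Of those 9, 1 acts in replication (Ccne1) and 8 in mitosis. Every KO library lay above every saline library for 17 members, 4 in replication (Mcm6, Mcm7, Rrm2 and Ccne1) and 13 in mitosis, and for 8.17% of all genes. A 0 in saline WT 2 allows up to 32.4 CPM, above the KO levels of some of these, such as Mcm7 and Ccne1. Without saline WT 2 and bleomycin WT 4, 21 had an unadjusted p under 0.05 as higher (6.35% of all genes) and 20 did not overlap (8.38%), with 0 past the adjusted threshold (0.377% of all genes; smallest adjusted p 0.0624, for Mcm6). Without saline WT 1 as well, 15 rose at an edgeR adjusted p under 0.05 (1.19% of all genes), 13 of which were also among the 15 of the first comparison in that fit.

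DNA replication genes were next set against mitotic genes within each library. The replication genes summed to 697, 184, 386 and 623 CPM in saline WT, to 857, 1149, 858 and 488 CPM in bleomycin WT and to 994, 895, 831 and 855 CPM in KO. The mitotic genes summed to 946, 303, 455 and 590 CPM in saline WT, to 1328, 1454, 1179 and 684 CPM in bleomycin WT and to 1378, 1376, 1184 and 1087 CPM in KO. For both sums all KO libraries lay above all saline libraries, while bleomycin WT 4 lay within the saline range. The log2 ratio of the mitotic to the replication sum was 0.44, 0.72, 0.24 and -0.08 in saline WT, 0.63, 0.34, 0.46 and 0.49 in bleomycin WT and 0.47, 0.62, 0.51 and 0.35 in KO. With all 12 libraries the 3 groups overlapped in this ratio (0.33 ± 0.34, 0.48 ± 0.12 and 0.49 ± 0.11, SD, n = 4 each). The overlap of saline WT with the bleomycin groups rests on saline WT 1 and 2, which stand apart: saline WT 3 and 4 lay below all 8 bleomycin libraries. With only the helicase and nucleotide genes as the replication sum, the ratio was 0.13 to 0.72 in saline WT, 0.53 to 0.97 in bleomycin WT and 0.53 to 0.74 in KO. These ranges overlap through saline WT 1 (0.56) and 2 (0.72), while saline WT 3 and 4, at 0.38 and 0.13, again lay below all bleomycin libraries. With 2 saline libraries left, this difference was not tested.

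**Figure D4:**
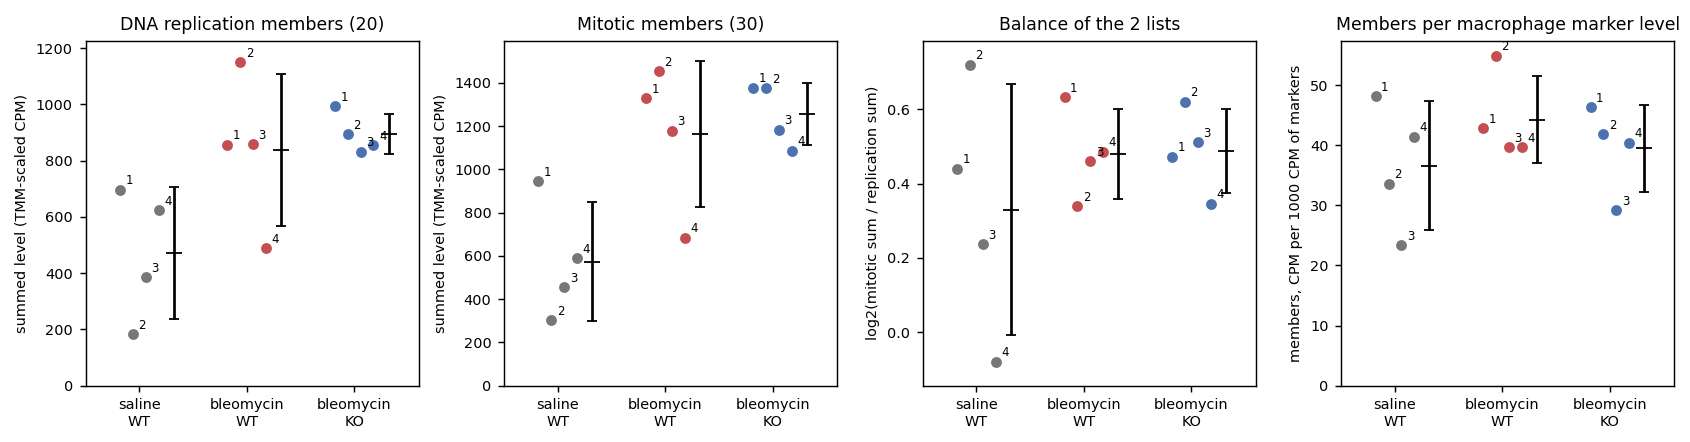
From left to right, summed CPM of the 20 replication members, summed CPM of the 30 mitotic members, the log2 ratio of the mitotic to the replication sum, and all members per 1000 CPM of macrophage markers, in each library (points labelled by replicate number) with the group mean and SD (bar, n = 4). The sums are higher in bleomycin KO than in saline WT with no overlap, and the ratios of the groups overlap, through saline WT 1 and 2 in the case of saline WT.

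Markers of other cells differed between the groups as well. The 10 macrophage markers summed to 14474 to 36058 CPM in saline WT, 29569 to 51386 in bleomycin WT and 48056 to 68999 in KO, with none of the 10 at 0 throughout a group. The 10 neutrophil markers summed to 2551 to 28944 CPM in saline WT, 557 to 1547 in bleomycin WT and 1144 to 1827 in KO, and the 8 epithelial markers to 1431 to 2326, 253 to 778 and 161 to 622. Fibroblast markers (6 genes) summed to 43.3 to 143, 199 to 316 and 92.3 to 480 CPM, and endothelial markers (6 genes) to 64.9 to 295, 9.24 to 63.1 and 21.4 to 76.9. Markers of granulocyte and monocyte precursors (7 genes), which divide in the bone marrow, summed to 10.8 to 171, 77.1 to 112 and 61.1 to 82.9 CPM, and Elane was at 0 in all KO libraries. Within these sums the group means of Kit, Cd34 and Flt3 were 11.4 to 49.9 CPM. Those of Elane, Mpo, Prtn3 and Ctsg were at most 3.72 CPM. T and NK cell markers summed to 54.0 to 527, 316 to 1046 and 288 to 624 CPM, and B cell markers to 97.3 to 413, 138 to 902 and 194 to 346. Set against the macrophage markers, the members stood at 48.1, 33.6, 23.3 and 41.4 CPM per 1000 CPM in saline WT, 42.9, 54.9, 39.6 and 39.6 in bleomycin WT and 46.3, 41.9, 29.2 and 40.4 in KO. By this measure the 3 groups overlapped. Whether the 10 markers came from macrophages alone was not tested, so the measure is not a macrophage share. Lyz2 alone made up 49.0 to 80.5% of the summed marker level of a library. Its mean was higher in both bleomycin groups, as were those of Adgre1, Cd68, Mertk, Fcgr1, C1qa and C1qb. The means of Cx3cr1, Csf1r and Ptprc were lower. Set against the 9 markers other than Lyz2, a choice made after seeing the data, the members stood at 146, 94.3, 106 and 125 CPM per 1000 CPM in saline WT, 185, 190, 138 and 77.7 in bleomycin WT and 191, 155, 150 and 144 in KO. Here 3 of the KO libraries and bleomycin WT 1 and 2 exceeded every saline library, so the overlap depends on the markers chosen. The part of macrophage share in the members' difference was not tested.

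Other genes of the pathway, from lists chosen with the members, had log2 fold changes of similar size where they act in S phase or mitosis. In bleomycin WT against saline WT, 18 of 26 other replication genes were above 0 (median 0.81, 3 higher at an unadjusted p under 0.05 in edgeR), as were 26 of 30 other mitotic genes (median 0.96, 7 higher). Of all genes 52.9% were above 0 and 8.47% higher by that rule. In KO against saline WT the counts were 23 of 26 (median 0.77) and 24 of 30 (median 0.78), with 2 and 5 higher at an unadjusted p under 0.05 in edgeR, against 51.7% and 2.96% of all genes. None of these genes passed the adjusted threshold with 12 libraries. Without saline WT 2 and bleomycin WT 4, Cdca3 and Kif22 rose in bleomycin WT, with log2 fold changes of 1.90 (SE 0.33, adjusted p 0.0424 by edgeR) and 2.48 (SE 0.45, adjusted p 0.0482). They were named after their values were seen, and 0.287% of all genes rose by that rule. In KO against saline WT, 1 of the other mitotic genes did (0.377% of all genes). Without saline WT 1 as well, 9 other mitotic and 3 other replication genes rose in each comparison with saline WT (1.46% and 1.19% of all genes). Ncapd2, a condensin subunit, was at 0, 0, 5.84 and 3.77 CPM in saline WT, at 42.1, 86.1, 27.8 and 59.9 CPM in bleomycin WT and at 52.4, 38.2, 26.4 and 35.1 CPM in KO, without overlap, with a log2 fold change of 4.10 (SE 0.94, adjusted p 0.174) in the first comparison. Its 0 in saline WT 2 allows up to 32.4 CPM, above the lowest level of each bleomycin group. Chaf1a, the large subunit of the chromatin assembly factor that follows the fork, was at 0, 0, 1.33 and 2.17 CPM in saline WT, at 18.5, 30.8, 13.7 and 4.80 CPM in bleomycin WT and at 23.6, 13.5, 5.65 and 20.7 CPM in KO, with a log2 fold change of 3.84 (SE 1.04, adjusted p 0.207). Pola1, the catalytic subunit of the priming polymerase, and Cdc25c, a phosphatase that activates CDK1, averaged 7.09 ± 8.12 and 3.5 ± 5.52 CPM in saline WT against 56.6 ± 65.1 and 40.2 ± 61.3 CPM in bleomycin WT (SD, n = 4). For both, bleomycin WT 4 held the highest level, 154 and 132 CPM.

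The genes that act before S phase had medians nearer 0, and for those that restrain the cycle the median depended on the libraries. Of 10 G1 cyclins, kinases and their factors, 6 were above 0 in bleomycin WT (median 0.22) and 4 in KO (median -0.08), with 0 at an unadjusted p under 0.05 in edgeR with 12 libraries. Ccnd3, a D-type cyclin, was at 62.7, 10.8, 190 and 194 CPM in saline WT, at 44.4, 76.4, 57.4 and 66.8 CPM in bleomycin WT and at 75.1, 55.6, 63.0 and 59.4 CPM in KO. Its log2 fold change in bleomycin WT was -0.96 (SE 0.61), and -1.34 (SE 0.38, adjusted p 0.170 by edgeR) without saline WT 2 and bleomycin WT 4. Without saline WT 1 as well, Ccnd3 fell by 1.58 on the log2 scale in bleomycin WT (SE 0.27, adjusted p 0.0156 by edgeR) and by 1.52 in KO (SE 0.25, adjusted p 0.0126), where 1.04% of all genes fell in each comparison. That fit rests on saline WT 3 and 4, the libraries with the high neutrophil markers. Cdk6, its kinase partner, averaged 51.8 ± 19.8 and 135 ± 162 CPM, bleomycin WT 4 alone standing at 378 CPM. Of 17 brakes on the cycle, 16 were tested (Cdkn2a was not), 13 were above 0 in bleomycin WT (median 0.67, 2 higher at an unadjusted p under 0.05; 52.9% and 8.47% of all genes) and 11 in KO (median 0.25, 1 higher; 51.7% and 2.96% of all genes). Without saline WT 2 and bleomycin WT 4 the median of the brakes in bleomycin WT was 0.02, while that of the members was 1.03. Rbl1, the p107 pocket protein, averaged 15.1 ± 12.4, 44.7 ± 8.67 and 39.3 ± 11 CPM, and every bleomycin WT library lay above every saline library. Gas1, a membrane protein expressed in arrested fibroblasts, was near the floor of detection in every group, at 0.0513, 1.32 and 1.45 CPM on average.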

How the data were processed

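The authors deposited raw counts per Ensembl gene (52636 genes, 12 libraries) and a gene table giving symbols, coordinates and exonic length in bases. SMART-Seq v4 cDNA, which does not mark strand, was made into Nextera XT libraries, per the labels' protocols. GSNAP, limma, Partek and the builds GRCm38 and mm10 are named, per the submitters' processing notes. The handling of multiply mapped reads is not stated there. The design text of the series concerns another experiment.

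Levels are CPM computed from the deposited counts with TMM-scaled library sizes. Tests were edgeR 4.0.16 quasi-likelihood fits (R 4.3.3, filterByExpr, robust dispersion) of all 12 libraries with group as the only term, Benjamini-Hochberg adjusted over 16679 genes at 0.05. Each SE is the fitted log2 fold change over the root of its F statistic. Single members were also compared by exact permutation of log2(CPM + 1). The common biological coefficient of variation was 0.862. No pair of libraries was within sampling noise of each other (lowest chi-square per degree of freedom 18.6). Alternatives included RLE factors, no filter, DESeq2 1.42.0, limma 3.58.1 voom, a replicate block, and libraries left out.

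The members and lists were chosen with earlier results of these data known. Described in full are the 2 members of each role with the highest CPM per kb, the 3 with the smallest p in each comparison, and 2 genes of each other list with the smallest p in the first comparison. The other members are summarised. The result of 1 marker list is not reported here.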

Additional observations from a re-analysis of the deposited data

Results flagged for a closer look

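Each of 27 described genes (19 members and 8 genes of the other lists) was examined in each group of 4 libraries, and so were 5 sums and ratios of the members, which makes 81 and 15 sets. Of these 96 sets, 16 held a library far from the other 3 (gap over range above Dixon's 95% critical value). That value flags about 1 in 20 sets of independent, normally distributed values. The sets here share libraries, and some of the genes were picked by small p-values in these same data. The number flagged therefore cannot be set against 1 in 20. All 16 were sets of 1 gene, and bleomycin WT 4 accounted for 10 of them. Among the members it was far below its group for Mcm6 (16.7 CPM against 151.5 to 168.5), Rrm1 (4.265 against 123.2 to 129.5), Ccnb2 (7.641 against 49.80 to 53.83) and Spc25 (0 against 21.42 to 24.67). It was far above its group for Tk1 (117.3 CPM against 24.71 to 35.14), Hells (117.5 against 15.32 to 16.96) and Tpx2 (218.9 against 48.69 to 65.71). Members of the replication group and of the mitotic group stood on both sides. The other members were Tpx2 in saline WT 1 (89.01 CPM against 10.35 to 20.57), Ccne1 in saline WT 3 (3.691 CPM against 0 to 0.1448) and Tk1 in bleomycin KO 1 (29.07 CPM against 23.01 to 24.04). Among the genes of the other lists bleomycin WT 4 was far above its group for Pola1 (153.9 CPM against 16.58 to 28.91), Cdc25c (132.2 against 7.847 to 12.28) and Cdk6 (378.3 against 42.34 to 60.86). Cdc25c also stood high in saline WT 4 (11.73 CPM against 0 to 1.459) and in bleomycin KO 4 (12.19 CPM against 5.106 to 5.472), and Gas1 in saline WT 3 (0.205 CPM against 0 in the others).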

How the results depend on the processing

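With 12 libraries, 0 members passed the adjusted threshold in any comparison in edgeR. For bleomycin WT against saline WT, other fits gave 3 with DESeq2 (Ccne1, Hells and Kif20a), 7 with limma-voom quality weights and 15 with 9 libraries, where 2.99%, 1.91% and 2.5% of all genes passed in those fits. For KO against saline WT, quality weights gave 4 and 9 libraries 15 (1.39% and 2.22% of all genes). Members higher at an unadjusted p under 0.05 in the first comparison went from 8 to 5 (RLE), 3 (only the 2 groups), 27 (quality weights), 21 (10 libraries) and 37 (9 libraries), where 8.47%, 6.43%, 4.89%, 8.26%, 6.49% and 9.39% of all genes were. In the third they went from 9 to 14 (no filter), 27, 21 and 36, where 2.96%, 2.17%, 7.31%, 6.35% and 9.01% of all genes were. Leaving out 1 library gave 5 to 20 in the first comparison and 5 to 19 in the third, with 0 past the adjusted threshold each time. In the first, the most came without bleomycin WT 4 (6.36% of all genes). The fewest came without saline WT 3 or bleomycin WT 2 (9.68% and 8.39% of all genes). In the third, the most came without bleomycin WT 4 (5.94%) and the fewest without bleomycin KO 1 (2.00%). The cause of these changes was not tested.

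Over the same omissions the replication and mitotic medians ranged from 0.45 to 1.14 and 0.92 to 1.46 in the first comparison, 0.82 to 1.22 and 1.11 to 1.72 in the third, and -0.22 to 0.35 and -0.08 to 0.49 between the bleomycin groups. The median over all genes moved from 0.08 to -0.09 (RLE), -0.24 (no filter), -0.13 (DESeq2), 0.19 (block) and -0.14 (10 libraries) in the first comparison. In the third it moved from 0.04 to -0.12, -0.27, -0.15, 0.20 and -0.15.

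Among the described members signs turned for E2f1, Spc25, Rrm1, Mcm3, Tk1, Kif23 and Tpx2. In the first comparison E2f1 gave -0.072 (RLE) and -0.11 (DESeq2), Spc25 -0.15 (RLE), -0.11 (DESeq2), -0.58 (voom) and -0.045 (block), and Rrm1 -0.038 (voom). Without 1 library, Spc25 ranged from -0.11 to 1.18 and Mcm3 from -0.11 to 1.12. In the third, Tk1 gave -0.15 (RLE), -0.17 (DESeq2) and -0.18 (10 libraries), and E2f1 -0.14, -0.18 and -0.20. Without 1 library, Tk1 ranged from -0.053 to 0.92, E2f1 from -0.073 to 0.68 and Kif23 from -0.56 to 0.16. Tpx2 between the bleomycin groups gave 0.011 with 10 libraries.

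Replicate numbers shared only a number: deviations of same-numbered libraries correlated at -0.202 to 0.0665, those of others at -0.245 to 0.406, and 0 libraries were closest to their own number. With the replicate number as a block, 0 members passed the adjusted threshold and 6 were higher at an unadjusted p under 0.05 in the first comparison (4.78% of all genes), with medians of 0.86 and 1.12. Depth limits saline WT 2, where a count of 0 allows up to 32.4 CPM.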
